A study of Mus musculus with 8 samples.

Results

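Reactive astrocyte genes were measured in the right cerebral cortex of C57BL/6 (C57BL/6 J in the methods) WT adult male mice, 3 weeks after sham surgery or bilateral carotid artery stenosis (BCAS). They are the 9 genes Gfap, Vim, Serpina3n, Lcn2, Cd44, S1pr3, Steap4, Aspg and Hspb1, chosen by their symbols, of 54752 genes in the count tables. In BCAS, both common carotid arteries are narrowed by small metal coils, here more tightly on the right, so that less blood reaches the forebrain. Sham mice had the same surgery without coils. There were 4 sham and 4 BCAS mice, 1 mouse per library of mRNA from right cortex tissue, in which no cell type was isolated.

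Astrocytes are the glial cells that take up glutamate, buffer potassium and line the blood vessels of the brain. After ischemia, trauma or inflammation they become reactive: their processes thicken with intermediate filaments, and they make secreted proteins, receptors and stress proteins at higher levels. The 9 genes are commonly used as markers of this state, whatever the injury, but several are also made by other cells, such as Vim and Cd44 by leukocytes and fibroblasts.

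Genes that rise together are often read against the regulatory letters near their starts. The 250 bases before each gene's RefSeq start (mm10) were searched on both strands for 5 short motifs of factors linked to inflammation and stress. The motifs were TTCNNNGAA for STAT factors, TGANTCA for AP-1, TTGCNNAA for C/EBP, the NF-kappaB motif and the heat shock element. All 9 genes had 1 window each. Those with a match are shown, 5′ to 3′ in the direction of the gene, with the matched letters in capitals.
Vim, chr2:13574061-13574310, + strand: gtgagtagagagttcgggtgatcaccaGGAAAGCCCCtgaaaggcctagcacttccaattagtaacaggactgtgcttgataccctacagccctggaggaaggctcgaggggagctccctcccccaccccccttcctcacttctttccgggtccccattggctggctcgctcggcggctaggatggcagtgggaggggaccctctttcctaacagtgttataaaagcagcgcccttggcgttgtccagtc
Serpina3n, chr12:104406458-104406707, + strand: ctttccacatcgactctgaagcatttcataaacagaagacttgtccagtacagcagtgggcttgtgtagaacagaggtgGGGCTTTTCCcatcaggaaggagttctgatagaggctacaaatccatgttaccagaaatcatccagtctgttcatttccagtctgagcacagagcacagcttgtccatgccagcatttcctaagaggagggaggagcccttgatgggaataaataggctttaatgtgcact
Lcn2, chr2:32387740-32387989, - strand: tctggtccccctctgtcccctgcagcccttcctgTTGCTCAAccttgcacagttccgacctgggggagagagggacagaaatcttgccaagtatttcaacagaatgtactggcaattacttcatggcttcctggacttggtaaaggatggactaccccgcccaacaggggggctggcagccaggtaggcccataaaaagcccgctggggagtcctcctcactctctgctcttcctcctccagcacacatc
Steap4, chr5:7960222-7960471, + strand: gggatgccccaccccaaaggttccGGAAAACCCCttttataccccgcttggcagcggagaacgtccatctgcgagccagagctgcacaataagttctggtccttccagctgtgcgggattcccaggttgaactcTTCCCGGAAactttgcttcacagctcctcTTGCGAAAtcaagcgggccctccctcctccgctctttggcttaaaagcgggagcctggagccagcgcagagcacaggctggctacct

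The NF-kappaB letters were in the windows of Vim, Serpina3n and Steap4, against 1.41% of all 32851 RefSeq windows of this length. The C/EBP letters were in those of Lcn2 and Steap4, against 9.56% of all windows. The STAT letters were in that of Steap4, against 7.02% of all windows. Steap4 thus held 3 of the 5 motifs, which did not overlap one another. No window of the 9 genes held the AP-1 letters or the heat shock element, which were in 6.75% and 0.466% of all windows. These matches describe letters and are not binding sites.

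The total counts ranged from 16759364 to 21794435 per library, and TMM scaling factors from 0.949 to 1.05. Expression is given as CPM, the count scaled by this adjusted library size. A count of 3 corresponds to at most 0.187 CPM, in sham mouse 2, the limit that a count of 0 would allow from counting error alone. The quasi-likelihood test of edgeR was applied to 17136 genes, and a gene was called where its adjusted p was under 0.05 and its log2 fold change above 1 or below -1. All 9 reactive astrocyte genes were tested, and all 9 were called higher in BCAS mice, whereas 11.0% of all tested genes were called higher and 1.28% lower. Limma-voom called 6 of the 9, without Lcn2, Steap4 and Hspb1, and leaving out 1 mouse gave 8 or 9. In 8 of the 9, every BCAS mouse lay above every sham mouse, as it did for 18.5% of all tested genes, while 16.3% lay below in every BCAS mouse. Their median log2 fold change was 3.90, with a range of 1.22 to 7.68, and the median over all tested genes was -0.01. In bulk tissue, more astrocytes and more RNA per astrocyte cannot be told apart.

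**Figure D1:**
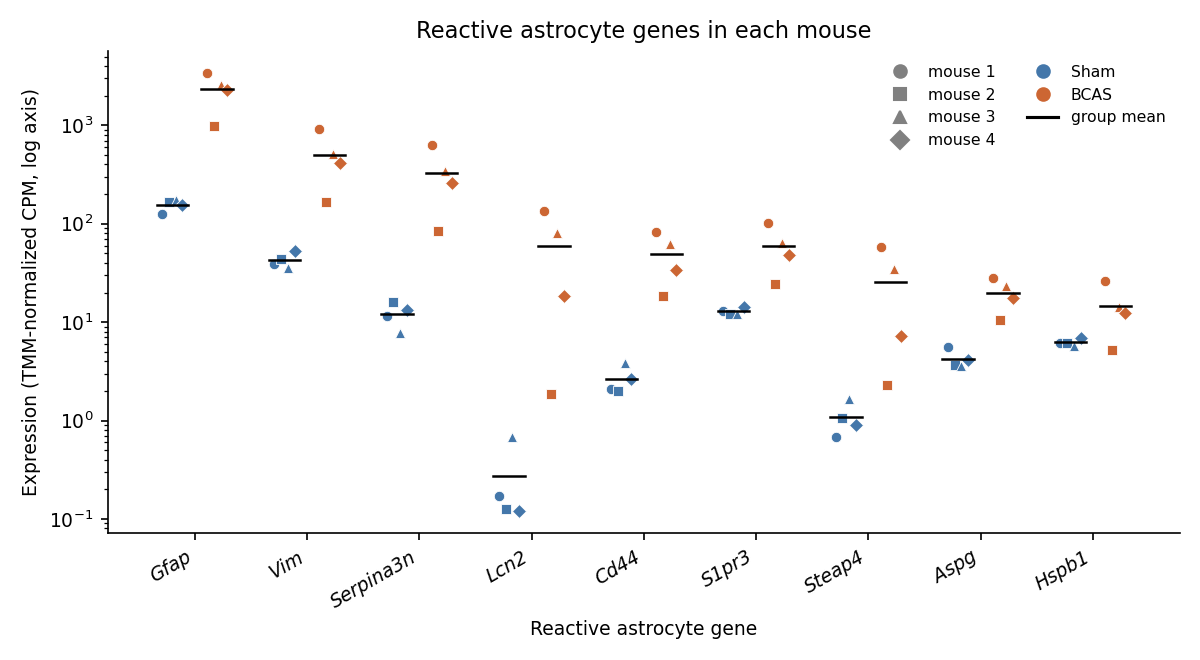
Expression (TMM-normalized CPM, log axis) of the 9 reactive astrocyte genes in each of 4 sham (blue) and 4 BCAS (orange) mice, with the marker shape giving the mouse number and a black line the group mean. In every gene BCAS mouse 1 was highest and BCAS mouse 2 lowest of the BCAS mice, and for Hspb1 BCAS mouse 2 lay below all 4 sham mice.

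Gfap and Vim encode intermediate filament proteins of the astrocyte cytoskeleton. Gfap (ENSMUSG00000020932.14, chr11:102887336-102900912, - strand) had 124, 167, 175 and 156 CPM in sham mice 1 to 4 and 3427, 979, 2578 and 2297 CPM in BCAS mice 1 to 4. The lowest BCAS mouse lay 5.60 times above the highest sham mouse. The mean rose from 155 ± 22.2 to 2320 ± 1015 CPM (SD, n = 4 each), a log2 fold change of 3.90 ± 0.36 (SE, adjusted p = 0.00146, edgeR). TPM divides counts by the annotated exon bases of a gene, over all its transcripts, before scaling. Per length, in TPM, Gfap ranked between 1084 and 1775 among all genes in sham mice and between 15 and 82 in BCAS mice. Gfap alone made up 61.2% to 75.9% of the counts of the 9 genes in each library.

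Vim (ENSMUSG00000026728.9, chr2:13573927-13582826, + strand) had 39.4, 44.3, 35.1 and 53.4 CPM in sham mice and 907, 165, 512 and 409 CPM in BCAS mice. The groups were far apart, although BCAS mouse 1 had 5.51 times the level of BCAS mouse 2. Vim rose by a log2 fold change of 3.53 ± 0.46 (SE, adjusted p = 0.00215, edgeR). Of 13 tested intermediate filament and filament-linked genes, none was called in either direction by edgeR, although 7 had an adjusted p under 0.05, with 3 higher and 4 lower in BCAS mice. Over all tested genes, 19.2% were higher and 12.8% lower at this threshold alone. Nes, the nestin gene of progenitors and reactive astrocytes, was among the higher ones, with a log2 fold change of 0.96 ± 0.30 (SE, adjusted p = 0.0366, edgeR). Synm, which encodes the filament partner synemin, had -0.13 ± 0.11 (SE, adjusted p = 0.384, edgeR). The 4 lower ones, named after their values were seen, were the neuronal filament genes Ina, Nefl and Nefm and the linker Plec, at -0.96 to -0.34 on the log2 scale. A single gene of the list was called higher without sham mouse 4 or BCAS mouse 2, and 1 was called lower without sham mouse 3 or BCAS mouse 2 or 4.

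Serpina3n and Lcn2 encode secreted proteins, a serine protease inhibitor and the iron-siderophore carrier lipocalin-2. Serpina3n (ENSMUSG00000021091.8, chr12:104406729-104414329, + strand) had 11.5, 15.97, 7.72 and 13.4 CPM in sham mice and 635, 83.7, 340 and 262 CPM in BCAS mice. Each BCAS mouse exceeded the highest sham mouse at least 5.24 times. Its log2 fold change was 4.76 ± 0.58 (SE, adjusted p = 0.00198, edgeR). Serpina3n belongs to a cluster of closely related genes between which reads can be split. The other 10 genes of the cluster together had 3 to 24 counts in sham and 26 to 182 counts in BCAS libraries, against 135 to 256 and 1625 to 14438 counts for Serpina3n. Only Serpina3g passed the filter of the test, with a log2 fold change of 2.37 ± 0.77 (SE, adjusted p = 0.0437, edgeR). Its call was lost when any mouse but BCAS mouse 2 was left out, and Serpina3a and Serpina3b had no counts in any library.

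Lcn2 (ENSMUSG00000026822.14, chr2:32384633-32388252, - strand) was close to the limit of detection in sham mice, with 3, 2, 12 and 2 counts, or 0.170, 0.125, 0.686 and 0.121 CPM. BCAS mice had 3053, 36, 1488 and 337 counts, or 134, 1.85, 80.4 and 18.4 CPM. Lcn2 thus differed most among the BCAS mice, with 72.4 times as much in mouse 1 as in mouse 2, yet mouse 2 still had 2.70 times the level of the highest sham mouse. The log2 fold change of 7.68 ± 1.40 was the largest of the 9 (SE, adjusted p = 0.00642, edgeR), and rests on 19 sham counts in all. It was 4.47 with limma on log2(CPM + 1) (adjusted p = 0.0148), a scale that shrinks changes of low genes, and limma-voom did not call it (6.73, adjusted p = 0.211). Sham mouse 3 held 12 of these 19, and the log2 fold change was 8.64 without it and 6.88 without BCAS mouse 1. The same sham library had 782 CPM over 7 choroid plexus markers, whereas the other sham mice had 19.2 to 52.2 and BCAS mice 41.9 to 76.3 CPM; the part of this in its Lcn2 level was not tested.

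Of 4 genes for receptors and partners of lipocalin-2, 3 were called higher. The endocytic receptor gene Lrp2 had a log2 fold change of 1.72 ± 0.56 (SE, adjusted p = 0.0444, edgeR), Mmp9, whose protease binds lipocalin-2, 1.98 ± 0.54 (adjusted p = 0.0252), and Bdh2, of the mammalian siderophore pathway, 1.86 ± 0.36 (adjusted p = 0.00774). All 3 were low, at mean levels of 1.36 to 5.28 CPM in BCAS mice. The receptor gene Slc22a17 had 622 ± 22.9 CPM in sham and 470 ± 109 CPM in BCAS mice (SD, n = 4 each; log2 fold change -0.41, adjusted p = 0.087, edgeR). Lrp2 and Mmp9 are also used by choroid plexus and leukocytes. Between 1 and 3 of the 4 were called when 1 mouse was left out, with 1 called without sham mouse 1, 2 or 4 or without BCAS mouse 3.

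Cd44 and S1pr3 encode receptors at the cell surface, for hyaluronan and osteopontin and for sphingosine-1-phosphate. Cd44 (ENSMUSG00000005087.17, chr2:102811141-102901665, - strand) had 2.10, 1.997, 3.83 and 2.66 CPM in sham mice and 83.1, 18.2, 61.6 and 33.6 CPM in BCAS mice. All BCAS values lay at least 4.76 times above the highest sham value. Cd44 had a log2 fold change of 4.21 ± 0.49 (SE, adjusted p = 0.00184, edgeR). Of 13 tested genes for ligands, partners and sheddases of CD44, 8 were called higher and none lower, with a median of 1.57, and 6 to 8 were called when 1 mouse was left out. The ligand gene Spp1, which encodes osteopontin, had the largest change, from 11.0 ± 0.828 to 332 ± 269 CPM (SD, n = 4 each; log2 fold change 4.91, adjusted p = 0.0031, edgeR), and shares 18.8% of its exon bases with Gm42793. Cd74, the invariant chain and a CD44 partner, had 4.56, Msn, which encodes the linker moesin, 2.73, and Adam17, a sheddase gene, 1.9. The hyaluronan synthase gene Has2 was called higher at 1.57 ± 0.39 (SE, adjusted p = 0.0187, edgeR), with 1.45 CPM on average in BCAS mice, while Has1 had 0.19 ± 0.40 (adjusted p = 0.728). Spp1, Cd74 and Msn are strongly expressed by microglia and leukocytes too.

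S1pr3 (ENSMUSG00000067586.4, chr13:51408639-51422797, + strand) had 13.0, 12.2, 12.1 and 14.2 CPM in sham mice and 101, 24.6, 64.3 and 48.4 CPM in BCAS mice. Sham mice were close together and all BCAS mice lay above them, mouse 2 by 1.73 times the highest sham value. The log2 fold change was 2.21 ± 0.36 (SE, adjusted p = 0.00445, edgeR), and 1.01% of its exon bases lie opposite Gm32834. Of 12 further sphingosine-1-phosphate genes, S1pr2, S1pr4 and the lyase gene Sgpl1 were called higher, at 1.63, 1.72 and 1.78 on the log2 scale, and none lower. The receptor gene S1pr1, which endothelial cells and astrocytes use, had 181 ± 17.4 CPM in sham and 197 ± 30.2 CPM in BCAS mice (SD, n = 4 each; log2 fold change 0.13, adjusted p = 0.457, edgeR). The median of the list was 0.15. Its count fell to 1 without sham mouse 1 or BCAS mouse 3.

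Steap4, Aspg and Hspb1 encode enzymes and a stress protein. The STEAP4 protein is a membrane metalloreductase of iron and copper, and Steap4 (ENSMUSG00000012428.9, chr5:7960457-7982213, + strand) had 0.682, 1.06, 1.66 and 0.905 CPM in sham mice and 57.9, 2.32, 34.9 and 7.30 CPM in BCAS mice. As with Lcn2, mice 1 and 3 stood well above mice 4 and 2, and mouse 2 had only 1.40 times the level of the highest sham mouse. The log2 fold change was 4.57 ± 0.96 (SE, adjusted p = 0.0105, edgeR), and 3.79 without BCAS mouse 1. It was 2.92 with limma on log2(CPM + 1) (adjusted p = 0.0242), and limma-voom did not call it (3.75, adjusted p = 0.126). BCAS mouse 3 had 4.79 times the level of mouse 4 for Steap4 and 4.38 times for Lcn2, against 1.12 to 1.83 times for the other 7 genes. Among the relatives, Steap3 was called higher at 1.91 ± 0.45 (SE, adjusted p = 0.0156, edgeR), though not without sham mouse 1, and Steap2 had -0.28 ± 0.13 (adjusted p = 0.132). Steap1 did not pass the filter, with at most 0.654 CPM in the other 7 libraries and 2.06 CPM in sham mouse 3.

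Aspg encodes an asparaginase. The gene (ENSMUSG00000037686.6, chr12:112106679-112127559, + strand) had 5.63, 3.68, 3.55 and 4.10 CPM in sham mice and 28.2, 10.5, 23.2 and 17.5 CPM in BCAS mice. Of the 9 genes it varied least among the BCAS mice, with 2.68 times between the highest and the lowest. Aspg rose by a log2 fold change of 2.23 ± 0.30 (SE, adjusted p = 0.00254, edgeR). The asparagine synthetase gene Asns had -0.60 ± 0.22 (SE, adjusted p = 0.0624, edgeR), and Asrgl1, of another asparaginase family, 0.27 ± 0.10 (adjusted p = 0.06), so neither was called.

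Hspb1 encodes the small heat shock protein HSP25, which protects other proteins and actin under stress. Hspb1 (ENSMUSG00000004951.10, chr5:135887919-135889563, + strand) had 6.08, 6.18, 5.78 and 6.94 CPM in sham mice and 26.5, 5.20, 14.1 and 12.4 CPM in BCAS mice. It was the only one of the 9 whose groups overlapped, since BCAS mouse 2 lay below all sham mice. The log2 fold change of 1.22 ± 0.40 was the smallest of the 9 and close to both thresholds (SE, adjusted p = 0.0448, edgeR). It was called without BCAS mouse 2, at 1.52 (adjusted p = 0.00159), and lost the call when any of the other 7 mice was left out, at 0.77 to 1.29 (adjusted p of 0.0745 to 0.103). Of 10 tested small heat shock protein and regulator genes, 5 were called higher and none lower, with a median of 0.84. The kinase gene Mapkapk3, of the family that phosphorylates HSP25, had 2.41 ± 0.43 (SE, adjusted p = 0.00595, edgeR). The relatives Hspb8 and Hspb6 had 1.64 and 1.45, and the co-chaperone gene Bag3 1.33. Hspb3 had -0.48 ± 0.37 (SE, adjusted p = 0.335, edgeR), and Hspb2 did not pass the filter.

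Levels can be compared between genes only per length, here the annotated exon bases of all transcripts of a gene. The length of the transcripts present was not measured, so the order between genes is approximate. In TPM, the order in sham mice was Gfap with a mean of 156, Vim 38.3, Hspb1 25.5, Serpina3n 24.7, S1pr3 12.2, Aspg 5.06, Cd44 1.66, Steap4 1.45 and Lcn2 0.451. This order held within each of the 4 sham mice, except that Hspb1 lay above Serpina3n and Cd44 above Steap4 in 3 of 4. Values of Steap4 and Lcn2 overlapped between mice only. In BCAS mice the order by mean TPM was Gfap 2278, Serpina3n 658, Vim 433, Lcn2 91.2, Hspb1 58.2, S1pr3 55.0, Steap4 33.1, Cd44 29.9 and Aspg 23.4. Within each of the 4 BCAS mice, Gfap lay above Serpina3n, Serpina3n above Vim, Vim above Lcn2, and S1pr3 above Steap4. The other neighbours kept this order in 2 of 4 mice only. Between mice, the ranges of all neighbours overlapped. The order of Serpina3n and Vim rests on the lengths used, 2064 and 4743 exon bases. By CPM, Vim lay above Serpina3n in each of the 4 BCAS mice. Together the 9 genes took 0.0192% to 0.0246% of the counts in sham and 0.130% to 0.564% in BCAS libraries.

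For all 9 genes the BCAS mice had the same order, with mouse 1 highest, then mouse 3, mouse 4 and mouse 2. The mice differed more for some genes than for others. On the log2 scale, the SD among the BCAS mice was 2.73 for Lcn2 and 2.10 for Steap4, and 0.61 to 1.22 for the other 7 genes, while the SD among sham mice was 0.11 to 0.85. In BCAS mouse 2, Serpina3n, Cd44, Gfap and Lcn2 lay 2.82, 2.78, 2.67 and 2.57 above the sham mean, Vim 1.95, Aspg 1.31, Steap4 1.10, S1pr3 0.93 and Hspb1 -0.26. In BCAS mouse 1 the same measure was 8.67 for Lcn2, 5.74 for Serpina3n and 2.07 for Hspb1.

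The next comparison asked whether the 9 genes moved more than genes that mark astrocytes in general. The reference was 20 astrocyte identity genes, such as Aldh1l1, a folate enzyme gene, and Aqp4, which encodes the water channel of the astrocyte end-feet. Only Aqp4 of the 20 was called higher, at 1.65 ± 0.28 (SE, adjusted p = 0.00471, edgeR), while 10 had an adjusted p under 0.05, all of them higher, against 19.2% of all tested genes. Aldh1l1 had 0.52 ± 0.14 (SE, adjusted p = 0.0257, edgeR), and the median was 0.39. Their mean log2 CPM lay 0.66, 0.15, 0.38 and 0.60 above the sham mean in BCAS mice 1 to 4, a mean difference of 0.45 (exact two-sided permutation test, p = 0.0286, the smallest that 4 against 4 mice can give).

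Relative to this mean in the same library, Lcn2 differed by 5.79 on the log2 scale, Serpina3n by 4.02, Cd44 by 3.53, Gfap by 3.33, Steap4 by 3.16, Vim by 2.85, Aspg by 1.68 and S1pr3 by 1.58. Each of these 8 had all BCAS mice above all sham mice (exact two-sided permutation tests, p = 0.0286 each, unadjusted, the smallest possible, 9 genes tested). For Hspb1 the difference of 0.54 was within the spread between mice (exact two-sided permutation test, p = 0.229), and was 0.86 without BCAS mouse 2 (p = 0.0286). Against Aldh1l1, Aqp4, Slc1a3 and Sox9 alone, the differences were smaller, from 0.15 for Hspb1 to 5.40 for Lcn2. All differences in this paragraph are of mean log2 CPM, so they cannot be subtracted from the edgeR fold changes above.

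**Figure D2:**
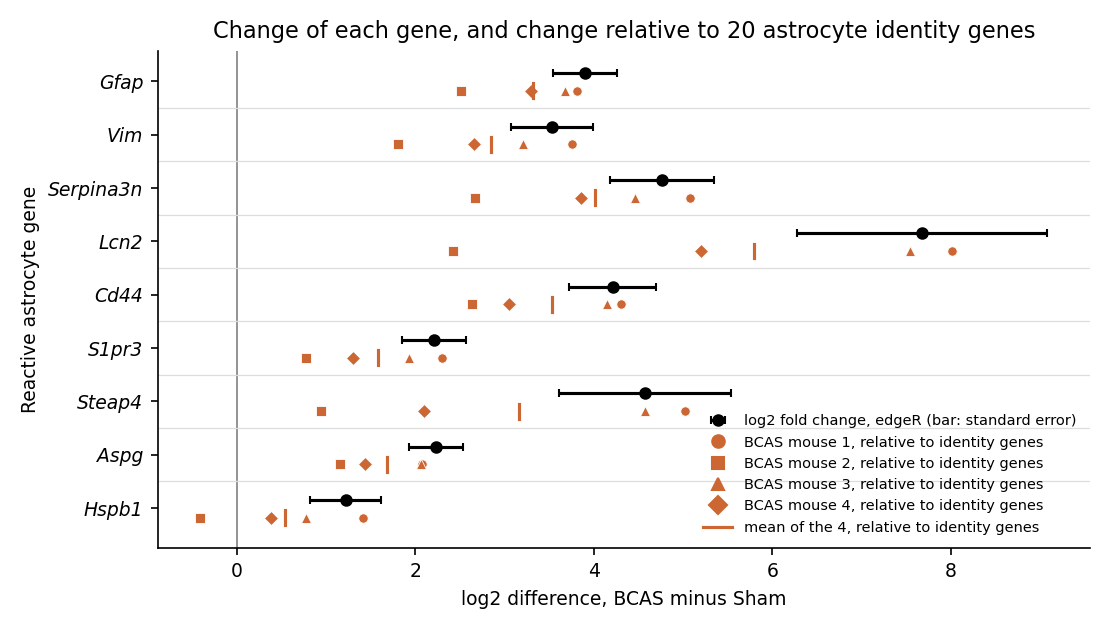
For each gene, the log2 fold change between BCAS and sham mice from edgeR with its standard error (black), and in orange the 4 BCAS mice relative to the mean of 20 astrocyte identity genes and to the sham mean, with a line at the mean of the 4. The orange values are differences in log2 CPM, another measure than the edgeR fold change. The distance from black to orange is therefore not the change of the identity genes alone. The black points run from 1.22 for Hspb1 to 7.68 for Lcn2, and only Hspb1 has a mouse below 0.

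Reactive astrocytes have been divided into a pan-reactive set and sets named A1, linked to inflammation, and A2, linked to ischemia. The remaining 4 pan-reactive genes were all called higher. The chemokine gene Cxcl10 had a log2 fold change of 5.22 ± 0.54 (SE, adjusted p = 0.00146, edgeR), the protease inhibitor gene Timp1 3.85 ± 0.71 (adjusted p = 0.00653), the oncostatin M receptor gene Osmr 3.08 ± 0.34 (adjusted p = 0.0016) and the ceruloplasmin gene Cp 2.57 ± 0.48 (adjusted p = 0.00688). Of the A1 genes, 8 of 11 tested were called higher, with a median of 2.50, and of the A2 genes also 8 of 11, with a median of 2.59. No gene of either set was called lower. Among the A1 genes, the immunoproteasome gene Psmb8 had 3.76, the MHC class I gene H2-D1 3.75, the complement inhibitor gene Serping1 3.18, the GTPase gene Gbp2 2.77 and H2-T23 2.20. Among the A2 genes, the transglutaminase gene Tgm1 had 6.03, the pentraxin gene Ptx3 3.78, the lipopolysaccharide receptor gene Cd14 3.63, Cd109 3.48 and the cytokine gene Clcf1 2.59. Both sets therefore rose in most of their members, and H2-D1, Psmb8 and Cd14 are also used by microglia and leukocytes.

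Cytokines of the interleukin-6 family act through gp130 and STAT3, a known route to Gfap expression. Of 13 tested genes of this route, 7 were called higher and none lower, with a median of 1.15. These 7 include Osmr, already counted above among the pan-reactive genes. Stat3 itself rose from 55.7 ± 1.59 to 123 ± 37.0 CPM (SD, n = 4 each; log2 fold change 1.15, adjusted p = 0.00527, edgeR), and its feedback inhibitor gene Socs3 had 1.9 ± 0.41 (SE, adjusted p = 0.0113, edgeR). The receptor gene Il6ra had 2.23, and the ligand gene Osm, with 4 counts over all sham mice, had 4.93 ± 0.92 (SE, adjusted p = 0.00702, edgeR). Microglial interleukin-1 alpha, TNF and C1q are known to induce the A1 state. A list of their genes, with Il1b and Tgfb1, which encode further cytokines that act on astrocytes, held 7 genes, of which all but Tnf were tested. All 6 tested genes were called higher, with C1qa, C1qb and C1qc at 4.31, 4.29 and 4.18, Il1a at 3.31, Il1b at 3.25 and Tgfb1 at 3.28. Tnf did not pass the filter, with at most 0.181 CPM in sham mice and 6.24, 0.258, 2.38 and 1.42 CPM in BCAS mice. With no filter on low counts, all 7 genes were called higher, as they were without any 1 sham mouse or BCAS mouse 2.

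**Figure D3:**
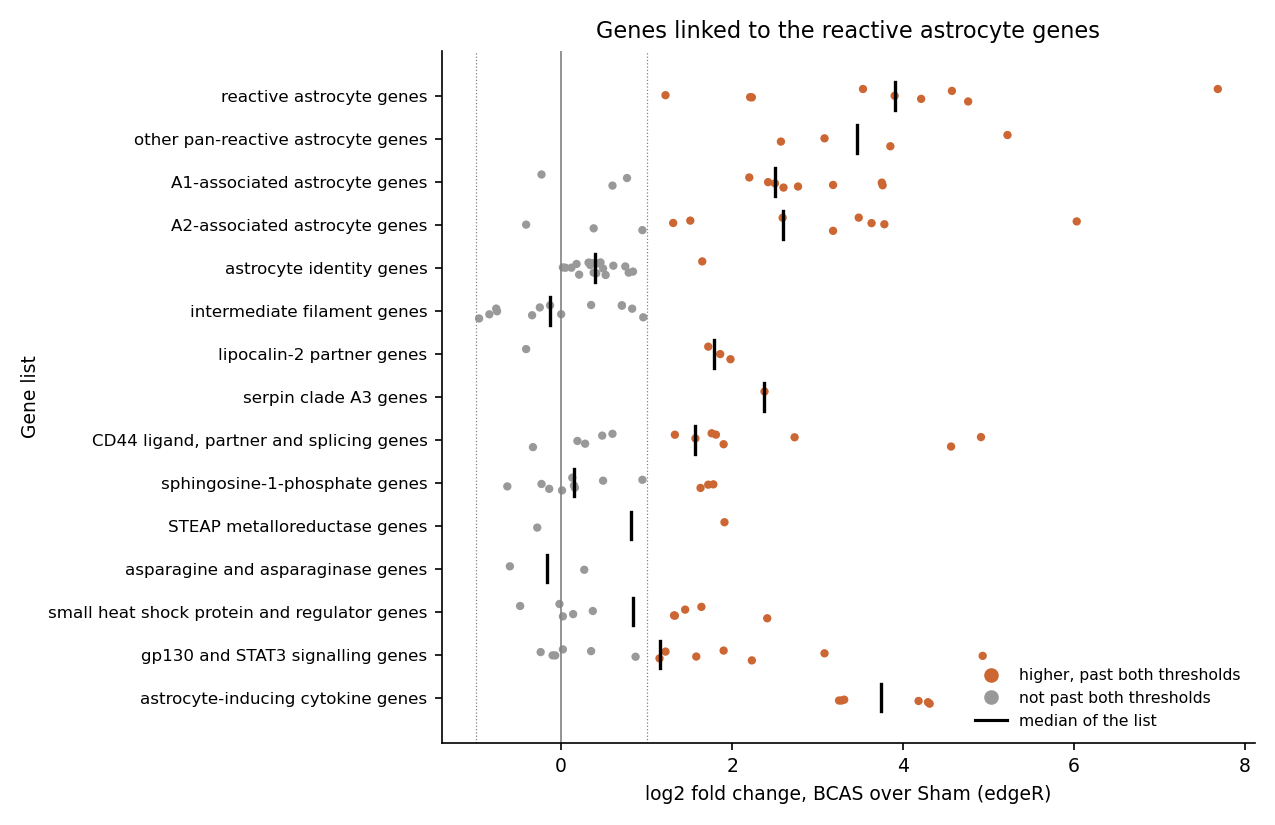
Log2 fold change between BCAS and sham mice (edgeR) of every tested gene in the 9 reactive astrocyte genes and 14 linked gene lists, in orange where called higher and grey otherwise, with a black line at the median and dotted lines at a log2 fold change of 1 and -1. The reactive astrocyte genes have a median of 3.90, while the astrocyte identity genes lie around 0.39 and the intermediate filament genes around -0.13.

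Markers of other cells moved in the same mice. All 12 microglia markers were called higher, with a summed level of 402 to 484 CPM in sham and 1641 to 5985 CPM in BCAS mice, and none of them was at 0. Of 10 fibroblast and meningeal markers, 9 were called higher, with sums of 84.0 to 110.6 and 186 to 1005 CPM. Of 12 blood-borne leukocyte markers, 5 passed the filter and 4 were called higher, with sums of 8.01 to 14.9 CPM in sham mice and 166, 11.6, 98.1 and 30.1 CPM in BCAS mice 1 to 4. The sum of BCAS mouse 2 lay within the sham range, but each of the 4 called leukocyte markers was higher in this mouse than in every sham mouse. In the same mouse the 9 genes had 0.833 times (Hspb1) to 6.89 times (Cd44) the sham mean. Of 10 neutrophil markers, which are of interest since neutrophils store lipocalin-2, only Csf3r passed the filter and was called higher, and Ly6g and Elane had no counts in any library. The neutrophil sums were 5.61 to 10.002 CPM in sham and 55.5 to 215 CPM in BCAS mice, of which Csf3r alone, a gene that microglia also express, made up 5.07 to 9.09 and 54.6 to 205 CPM. The other 9 markers together had 0.25 to 0.972 CPM in sham mice and 9.89, 0.927, 13.1 and 2.89 CPM in BCAS mice 1 to 4, so BCAS mouse 2 lay within the sham range. Without the filter on low counts, Csf3r, S100a8, S100a9 and Cxcr2 were called higher (adjusted p = 4.11e-05, 0.0303, 0.0108 and 0.0292, edgeR). Among neuron markers, 1 of 12 was called lower and none higher, and 8 had an adjusted p under 0.05, all of them lower, against 12.8% of all tested genes, with sums of 10723 to 12351 CPM in sham and 4327 to 9182 CPM in BCAS mice. None of 12 endothelial, 10 oligodendrocyte or 7 striatal neuron markers was called, while 1 of 9 tested mural cell, 1 of 6 oligodendrocyte precursor and 2 of 5 tested ependymal markers were called higher. All 8 proliferation genes were called higher, with a median of 2.68 and sums of 6.02 to 10.3 CPM in sham and 17.8 to 96.1 CPM in BCAS mice, but only 4 of them without sham mouse 1. Leaving out 1 mouse moved the counts of leukocyte markers, 8 or 9 when any 1 sham mouse or BCAS mouse 2 was left out, and of neuron markers, 4 without BCAS mouse 2 and 0 without sham mouse 1 or 4 or BCAS mouse 1 or 4. The filter was applied anew in each fit, so these 8 or 9 leukocyte markers include some beyond the 5 tested with all mice. Without BCAS mouse 2, 3 neutrophil markers and 1 endothelial marker were called higher, and 2 neutrophil markers without sham mouse 1 or 3. The part of these cells in the levels of the 9 genes was not tested.

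**Figure D4:**
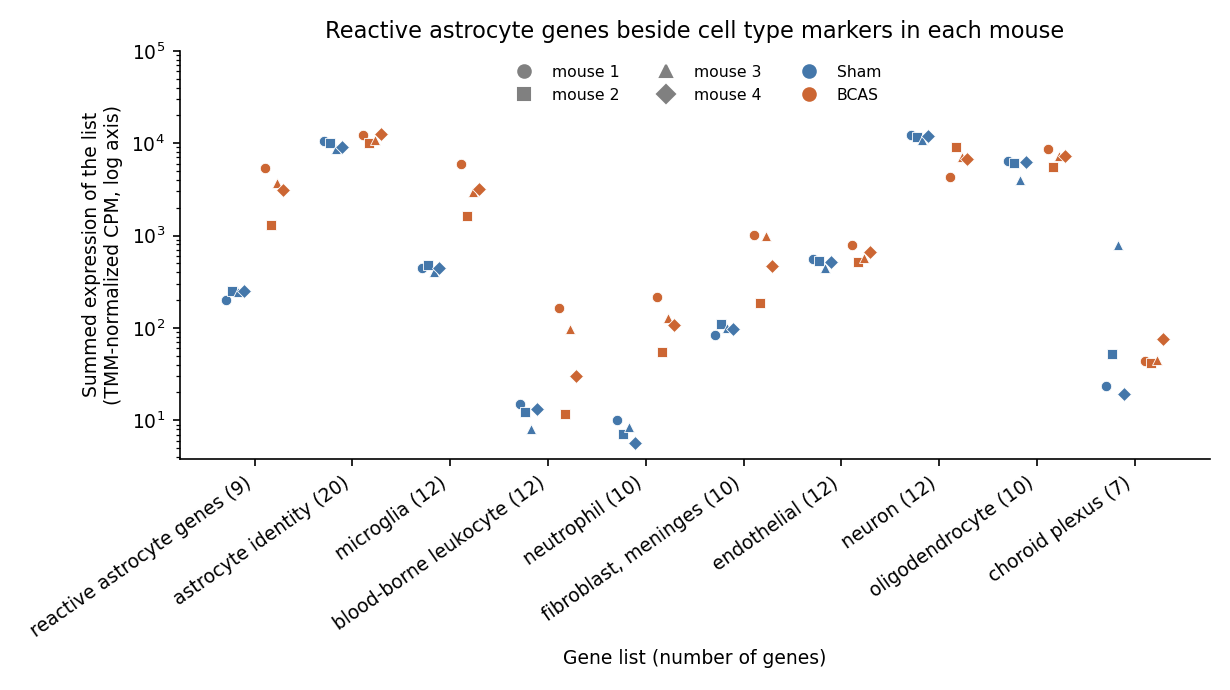
Summed expression (TMM-normalized CPM, log axis) of the 9 reactive astrocyte genes and of marker lists, with the number of genes in parentheses, in each sham (blue) and BCAS (orange) mouse, where the marker shape gives the mouse number. The reactive astrocyte genes sum to 203 to 252 CPM in sham and 1291 to 5399.8 CPM in BCAS mice, and sham mouse 3 stands apart at 782 CPM of choroid plexus markers.

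For each of the 9 genes, the 2 other genes with the closest pattern were sought among the tested genes whose counts averaged 50 or more. Likeness was the root-mean-square difference in log2 CPM over the 8 libraries, each gene taken relative to its sham mean. Gfap was closest to Dock2 at 0.20 and C1qc at 0.23, and Vim to Arhgap45 at 0.13 and Ncf1 at 0.14. Serpina3n was closest to Myo1f at 0.25 and Phf11b at 0.28, and Cd44 to Slc11a1 at 0.23 and Ptprc at 0.26. S1pr3 was closest to Trim25 at 0.09 and Stk10 at 0.11, Aspg to Pnpla7 at 0.16 and Gmip at 0.18, and Hspb1 to Filip1l at 0.20 and Parp4 at 0.21. The least well matched were Steap4, with Ccr2 at 0.43 and Ms4a7 at 0.52, and Lcn2, with Lgals3 at 0.68 and Gpnmb at 0.74. Among the 9 genes themselves, the closest pairs were S1pr3 and Aspg at 0.24, Gfap and Cd44 at 0.33 and Gfap and Vim at 0.43, and the farthest was Lcn2 and Hspb1 at 3.92. Several of these neighbours, such as C1qc, Ptprc and Ccr2, are known as genes of microglia and leukocytes.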

How the data were processed

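From total RNA of the right cortex of 8 mice, mRNA was purified and sequenced as paired reads. The methods mention a strand-specific ligation. Per the submitters' notes, the authors trimmed the reads with Trim Galore, aligned them to mm10 with HISAT2 and sorted them with SAMtools 1.9. The authors deposited raw counts of read pairs per gene from featureCounts, without normalization; the file headers name version 2.0.1 and GENCODE vM20 without a strand option, so pairs were counted on either strand, whereas the notes name version 1.6.3. No option for reads shared between genes is recorded, so overlapping or near-identical genes are measured less surely. Symbols were matched by gene ID.

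Counts were tested with edgeR 4.0.16 in R 4.3.3, with TMM scaling, filterByExpr (minimum count 10, minimum total 15), the quasi-likelihood F-test without covariates and Benjamini-Hochberg adjustment over 17136 genes. Standard errors were derived from each fold change and F value. Log2 CPM used a prior count of 2. Procedures were tested on simulated data. Alternatives were other scalings and filters, DESeq2 1.42.0, limma 3.58.1 (voom, or log2(CPM + 1)), robust edgeR, thinned counts, a replicate block, leaving out each mouse and a test against a log2 fold change of 1. Of each linked list, the first 2 genes and up to 4 called genes with the largest change were named. The 9 genes and the lists were chosen with earlier results of these data known. Figures were drawn with matplotlib 3.10.9.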

Additional observations from a re-analysis of the deposited data

Results flagged for a closer look

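Lcn2 in sham mouse 3 lay apart from the other 3 sham mice. Its gap to the nearest sham mouse was 0.84 of the whole range of the group in log2 CPM, above the critical value of Dixon's test for 4 values at the 95% level. The level was 0.686 CPM (12 counts) against 0.121 to 0.170 CPM (2 or 3 counts). This was the only one of 18 groups tested (9 genes in 2 groups) that passed, and chance alone passes about 1 in 20. The same library had 696 CPM of Ttr, a choroid plexus transcript, against 7.72 to 34.2 CPM in the other sham mice, and 2.06 CPM of Steap1 against 0.170 to 0.374 CPM. The part of this in the Lcn2 level was not tested.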

How the results depend on the processing

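Gfap, Vim, Serpina3n, Cd44, S1pr3 and Aspg kept their direction and an adjusted p under 0.05 in all 20 alternatives, and 6 to 9 of the 9 genes were called in each. Under limma-voom, Lcn2 (6.73, adjusted p = 0.211), Steap4 (3.75, adjusted p = 0.126) and Hspb1 (1.03, adjusted p = 0.134) lost the threshold. Lcn2 could not be tested with at least 10 counts in every library. Hspb1 also lost it with limma on log2(CPM + 1) (0.91), in the test against a log2 fold change of 1 (1.22), with a replicate block (1.02, adjusted p = 0.0871), and in 7 of 8 fits without 1 mouse (0.77 to 1.29, and 1.52 in the eighth, which kept it). The block changed no other call of the 9 genes. The sham and BCAS mice share numbers only: same-numbered deviations correlated at -0.103 to 0.00126 over genes, and no mouse correlated best with its own number. The test against a log2 fold change of 1 called 739 genes higher instead of 1877, since it asks for more.

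Relative to the astrocyte identity genes, without 1 mouse the difference was 5.05 to 6.92 for Lcn2, 1.34 to 1.84 for S1pr3, 2.54 to 3.90 for Steap4 and 0.25 to 0.86 for Hspb1. Without 1 sham mouse the permutation test gave p = 0.0571 for Lcn2, S1pr3 and Steap4. In these unequal groups, another arrangement of the mice gave a difference at least as large. The differences themselves were then 5.60 to 6.26, 1.53 to 1.64 and 2.95 to 3.41, with every BCAS mouse above every sham mouse.

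Without a filter on low counts, 3 serpin clade A3 genes, 11 blood-borne leukocyte and 4 neutrophil markers were called higher. Without 1 mouse, the number called higher was 0 to 1 intermediate filament, 1 to 3 lipocalin-2 partner, 0 to 1 serpin clade A3, 1 to 4 sphingosine-1-phosphate, 0 to 1 STEAP and 4 to 8 proliferation genes. Among markers it was 4 to 9 for leukocytes, 1 to 3 for neutrophils, 0 to 1 for endothelial, 1 to 2 for mural, 1 to 2 for ependymal and 0 to 2 for striatal cells. The number called lower was 0 to 1 intermediate filament genes and 0 to 4 neuron markers. The filter was applied anew in each fit, so the tested genes changed too, and only 5 leukocyte markers were tested with all mice. The cause of these changes was not tested otherwise. Depth limits Lcn2 and Osm in sham mice, with at most 12 and 2 counts per library.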
